A study of Homo sapiens with 2 samples.

Results

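The data cover 10 genes of cell adhesion and epithelial identity in single cells of 2 pluripotent states: the cadherin genes CDH1, CDH2 and CDH3, the adhesion molecule gene EPCAM, the claudin genes CLDN3, CLDN4, CLDN6, CLDN7 and CLDN10, and VIM, which encodes the intermediate filament protein vimentin. They were taken by symbol, and all 10 were among the 22474 genes listed. The RNA came from H9, a line of human embryonic stem cells, and was read by Smart-seq2, which copies and amplifies whole polyadenylated transcripts of 1 cell without molecular barcodes. The ffEPSC sample held 25 feeder-free extended pluripotent stem cells, obtained by converting H9 cells, and the ESC sample held 16 H9 embryonic stem cells. Both states share 1 cell line and each is 1 sample, so no test between them was possible and the values describe these libraries. The sources used here do not give the conversion medium or the culture of the ESCs. Levels are in CPM, the share of a library's gene counts scaled to 1000000. Each log2 ratio sets ffEPSCs over ESCs, with 1 CPM added to both.

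Cadherins are calcium-dependent proteins that join neighbouring cells at adherens junctions and bind catenins inside the cell. Claudins form the strands of tight junctions, which seal the space between epithelial cells, and each member sets a different permeability. Primed human pluripotent cells grow as an epithelial sheet, with E-cadherin and EPCAM at the surface. An exchange of E-cadherin for N-cadherin with a gain of vimentin is the textbook sign of an epithelial to mesenchymal transition.

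The ffEPSC library held 374101290 gene counts (12507469 to 17811209 per cell) and the ESC library 265412149 (11714517 to 19965639 per cell). Cell names carried a set number of unstated meaning. Sets 1 to 4 gave 3, 9, 2 and 11 ffEPSC cells, and sets 1 and 3 gave 7 and 9 ESC cells. A comparison inside a set is therefore possible in sets 1 and 3. The 6 pluripotency markers examined (POU5F1, NANOG, SOX2, LIN28A, SALL4 and DPPA4) had a summed level of 2356 to 3964 CPM per ffEPSC cell and 781 to 3750 CPM per ESC cell. The 6 listed markers of the naive or extended state (DNMT3L, TFAP2C, KLF4, DPPA3, TFCP2L1 and FGF4) summed to 41.3 to 1433 CPM per ffEPSC cell and 0.218 to 39.5 CPM per ESC cell, without overlap. A group of 4 ESC cells with the lowest POU5F1, called POU5F1-low here, stood apart from the other 12. The mean log2 difference from ESCs was taken per autosome, and each cell's median over its autosomes was subtracted. Averaged over chromosomes 5, 11, 14, 20 and 22, this shift was 0.49 or more in 18 ffEPSC cells and less than 0.3 in the other 7. Of these 7 cells, the 5 that were also below 0.3 on chromosome 5 are called low-shift here. Both ffEPSC cells of set 3 are low-shift cells.

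N-cadherin, vimentin and the claudin genes CLDN3, CLDN4 and CLDN10 were lower in ffEPSCs, while E-cadherin, P-cadherin, EPCAM and CLDN6 stood at near equal levels and CLDN7 was somewhat higher. All 10 genes had 5 CPM in at least 1 library. Of them, 5 were lower in ffEPSCs by 2-fold or more (CDH2, CLDN3, CLDN4, CLDN10 and VIM), and 0 were higher by that much. Among all 10825 genes with 5 CPM in at least 1 library, 5.84% were lower and 8.3% higher by 2-fold or more. The median log2 ratio was -0.64 over the 10 genes and 0.04 over the 10825. The genes were picked with such differences known, so their count says nothing about junction genes in general. Over single cells the states overlapped for all 10 genes, while 0.111% of the 10825 genes had every ffEPSC cell below every ESC cell and 0.102% had every one above.

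**Figure D1:**
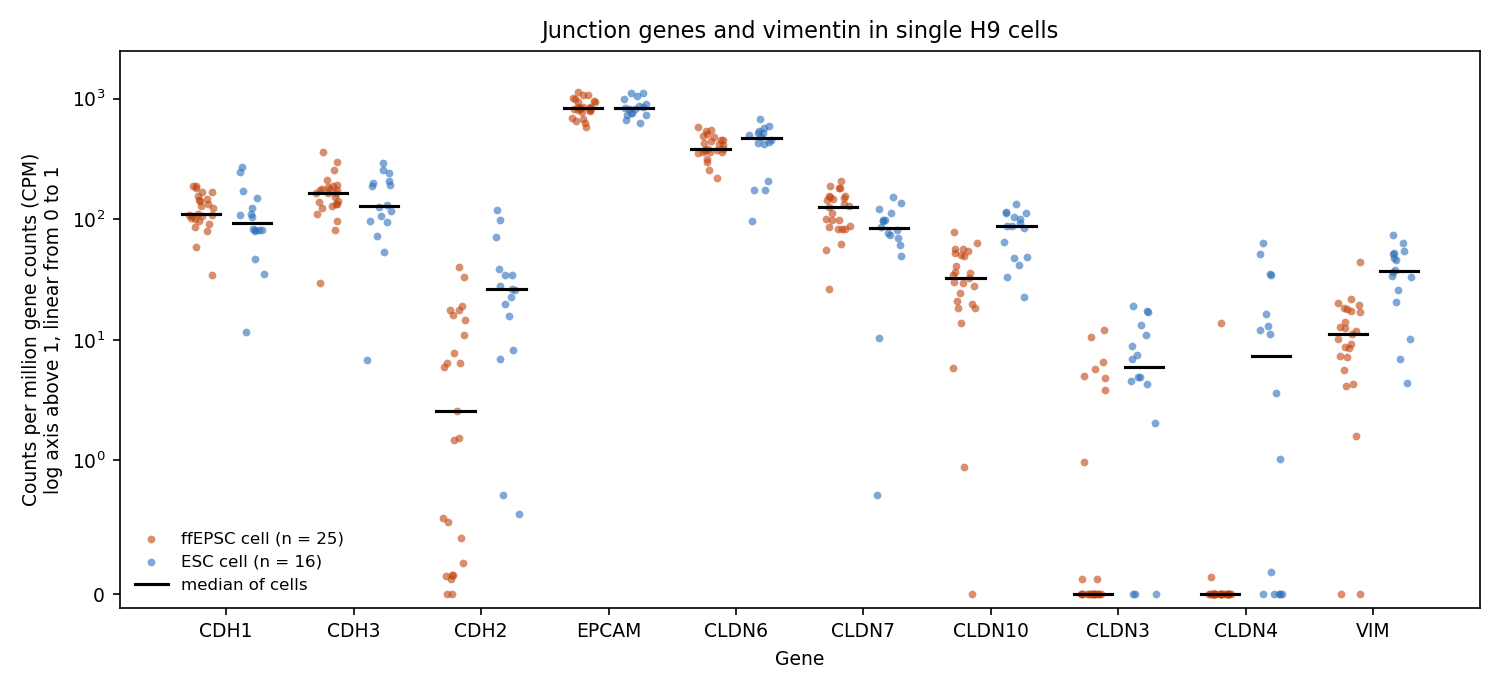
CPM of each of the 10 genes in each ffEPSC cell (orange, 25 cells) and each ESC cell (blue, 16 cells), on an axis that is logarithmic above 1 CPM and linear below; black lines are medians over cells. EPCAM lay between 584 and 1130 CPM in ffEPSC cells and between 633 and 1118 CPM in ESC cells, while CLDN4 was at 0 in 23 of 25 ffEPSC cells and 5 of 16 ESC cells.

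CDH1 encodes E-cadherin, the main cadherin of epithelia and of pluripotent cells, and lies on chromosome 16 (68737225 to 68835548 on GRCh38). It was at 124 CPM in the ffEPSC library (95% interval 122 to 125) and 118 CPM in the ESC library (117 to 119), a log2 ratio of 0.07. The lowest, median and highest cells had 34.3, 111 and 188 CPM among ffEPSCs and 11.6, 93.6 and 274 CPM among ESCs. Every cell of both states was above 10 CPM, and the ESC range enclosed the ffEPSC range. The direction of this small difference was not stable, with a log2 ratio of -0.50 within set 1 and 0.53 within set 3.

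CDH3 encodes P-cadherin, a classical cadherin first described in placenta, and lies 14.6 kb before CDH1 on the same strand (68636189 to 68722616). It was at 166 CPM in ffEPSCs (165 to 167) and 156 CPM in ESCs (155 to 158), with a log2 ratio of 0.09. Cells ran from 29.4 over a median of 166 to 360 CPM in ffEPSCs and from 6.80 over 129 to 291 CPM in ESCs. The log2 ratio was -0.17 within set 1 and -0.83 within set 3, where the 2 ffEPSC cells had 134 and 29.4 CPM. Per kilobase of exon, CDH3 was the most abundant cadherin gene in both libraries, at 26.6 CPM per kb in ffEPSCs and 25.1 in ESCs, followed by CDH1 at 19.997 and 19.1.

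CDH2 encodes N-cadherin, the classical cadherin of neural and mesenchymal cells, and lies on chromosome 18 (27950966 to 28177446). It was at 8.10 CPM in ffEPSCs (7.82 to 8.40) and 35.0 CPM in ESCs (34.3 to 35.7), a log2 ratio of -1.98. The unadjusted fold was 0.232 (0.222 to 0.241). Cells ran from 0 over a median of 2.56 to 40.5 CPM in ffEPSCs and from 0.603 over 26.3 to 120 CPM in ESCs. CDH2 reached 10 CPM in 8 of 25 ffEPSC cells and 12 of 16 ESC cells, and the ffEPSC cell was the higher one in 16.5% of all pairs of an ffEPSC and an ESC cell. The ffEPSC sets 1 to 4 had 17.5, 5.30, 9.87 and 7.54 CPM, all below the 36.6 and 33.8 CPM of the ESC sets 1 and 3. Within set 1 the log2 ratio was -1.02 and within set 3 it was -1.68.

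CDH2 was above CDH1 in CPM in 0 of 25 ffEPSC cells and 2 of 16 ESC cells. The 2 ESC cells had 120 CPM of CDH2 with 81.1 CPM of CDH1, and 71.4 CPM of CDH2 with 35.1 CPM of CDH1. CDH2 made up 2.72% of the counts of the 3 cadherin genes in ffEPSCs (Clopper-Pearson interval 2.63 to 2.82%) and 11.3% in ESCs (11.1 to 11.5%). This share ran from 0 over a median of 0.897% to 12.6% in ffEPSC cells and from 0.178% over 8.71% to 39.2% in ESC cells. CDH2 is also read in neural cells, and the 4 listed neuroectoderm markers (PAX6, FABP7, MAP2 and ZIC1) summed to 0 to 9.11 CPM per ffEPSC cell (median 0.112) and 29.4 to 175 CPM per ESC cell (median 62.6). In the ESC library the sum was mostly FABP7 (62.6 CPM) and MAP2 (9.87 CPM), with PAX6 at 0.354 and ZIC1 at 0.332 CPM. SOX1 was not listed. The 4 listed mesoderm markers (TBXT, MIXL1, EOMES and TBX6) went the other way. They summed to 0 to 43.2 CPM per ffEPSC cell (median 3.24) and 0 to 4.94 CPM per ESC cell (median 0). Medians were 0.564 and 12.3 CPM for the 3 listed endoderm markers and 0 and 4.18 CPM for the 3 listed trophoblast markers. The part of these markers in the CDH2 difference was not tested.

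Among the other cadherins CDH26 and CDH11 were higher in ffEPSCs. Of 23 cadherin genes 15 were listed and 7 had 5 CPM in at least 1 library, of which 2 were higher and 1, CDH2, was lower by 2-fold or more. The median log2 ratio of the 7 was 0.09. CDH26, a cadherin known from epithelium in allergic inflammation, was at 16.8 CPM in ffEPSCs and 2.41 CPM in ESCs (log2 ratio 2.38, 3.59 within set 1 and 2.10 within set 3). It reached 1 CPM in 21 of 25 ffEPSC cells and 5 of 16 ESC cells. CDH26 lies on chromosome 20, and its log2 ratio was 2.01 in the low-shift cells. CDH11, a cadherin of osteoblasts and mesenchyme, was at 9.61 and 4.14 CPM (1.04), with 1 CPM in 18 ffEPSC and 5 ESC cells. Its log2 ratio was 0.74 in the low-shift cells and 0.68 with a pseudocount of 5 CPM. Over all listed cadherins the summed level was 349 CPM in ffEPSCs and 338 CPM in ESCs.

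**Figure D2:**
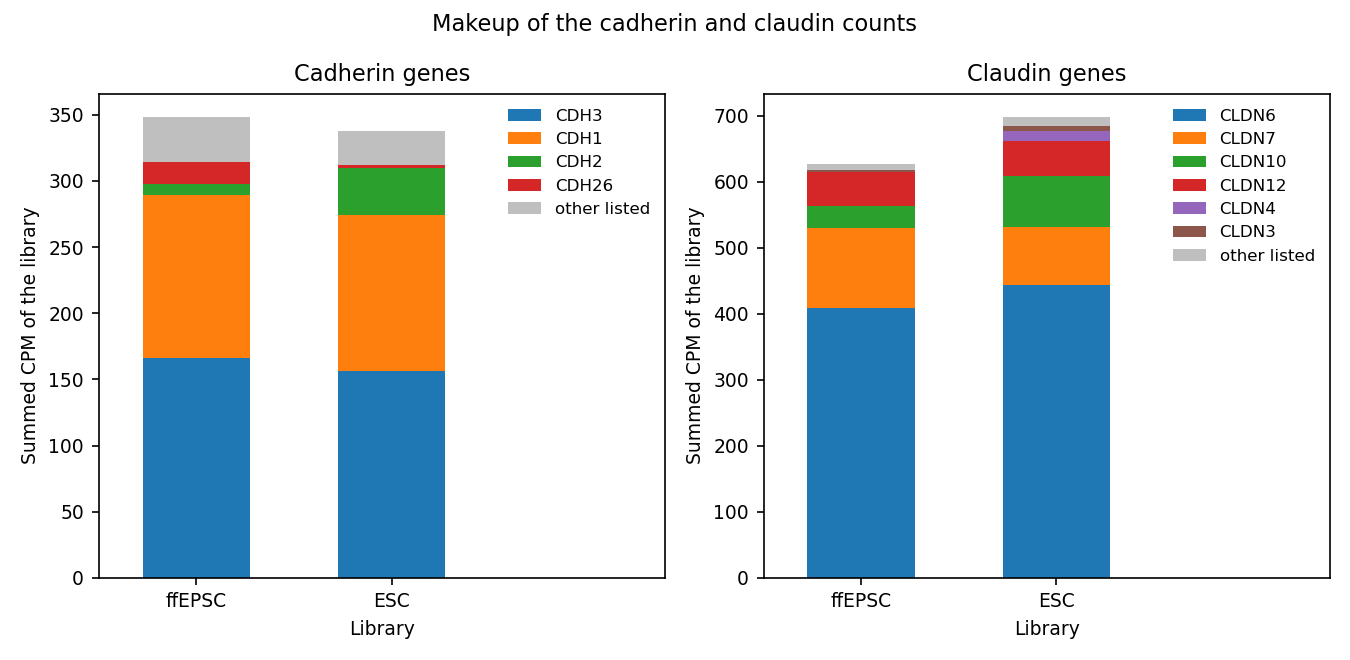
Summed CPM of the listed cadherin genes (left) and claudin genes (right) in the ffEPSC and ESC libraries, split by gene; CPM is not divided by gene length. CDH2 was 8.10 CPM of 349 in ffEPSCs and 35.0 of 338 in ESCs, and CLDN6 was 409 CPM of 626 in ffEPSCs and 444 of 698 in ESCs.

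EPCAM, the epithelial cell adhesion molecule used as a surface marker of human pluripotent cells, lies on chromosome 2 (47345158 to 47387601) and was the steadiest of the 10 genes. It was at 851 CPM in ffEPSCs (848 to 854) and 865 CPM in ESCs (861 to 869), a log2 ratio of -0.02. Cells ran from 584 over a median of 841 to 1130 CPM in ffEPSCs and from 633 over 832 to 1118 CPM in ESCs. The coefficient of variation over cells was 16.8% in ffEPSCs and 17.3% in ESCs, the smallest of the 10 genes in each state. Of the relatives and partners of EPCAM 4 of 6 were measured, with 0 past 2-fold in either direction and a median log2 ratio of 0.23. SPINT2, a protease inhibitor that acts with EPCAM in gut epithelium, was at 123 and 117 CPM.

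Claudin genes divided into those at similar levels in both states and those lower in ffEPSCs. Of 23 claudin genes 14 were listed and 6 had 5 CPM in at least 1 library: the 5 followed here and CLDN12. Of the 6, 3 were lower and 0 higher by 2-fold or more, and the median log2 ratio was -0.64. CLDN3 and CLDN4 are neighbours on chromosome 7, 29.3 kb apart by the gene bounds of GENCODE 29. The RefSeq window of CLDN4 begins at 73830746, inside the GENCODE 29 gene, which begins at 73799542. The promoters of 4 claudin genes are given because CLDN3 and CLDN4 were both lower while CLDN6 and CLDN7 were not. They are RefSeq windows of 300 bases on GRCh38.p14, 5′ to 3′ on the gene's strand, from 250 bases before to 50 after the start. Capitals mark CAGGTG or its reverse complement CACCTG, the E-box letters known to be bound by SNAI and ZEB repressors.
CLDN3, chr7:73770221-73770520, minus strand: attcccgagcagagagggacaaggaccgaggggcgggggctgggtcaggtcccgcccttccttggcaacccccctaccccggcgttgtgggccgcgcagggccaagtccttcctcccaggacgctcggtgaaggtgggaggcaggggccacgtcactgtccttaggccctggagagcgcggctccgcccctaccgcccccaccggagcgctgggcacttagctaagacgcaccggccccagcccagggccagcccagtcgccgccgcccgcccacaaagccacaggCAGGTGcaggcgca
CLDN4, chr7:73830746-73831045, plus strand: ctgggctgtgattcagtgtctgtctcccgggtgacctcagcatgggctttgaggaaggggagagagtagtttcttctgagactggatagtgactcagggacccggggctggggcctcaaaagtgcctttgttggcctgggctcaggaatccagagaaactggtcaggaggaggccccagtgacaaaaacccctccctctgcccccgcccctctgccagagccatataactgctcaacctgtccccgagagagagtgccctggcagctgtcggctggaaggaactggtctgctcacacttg
CLDN6, chr16:3018134-3018433, minus strand: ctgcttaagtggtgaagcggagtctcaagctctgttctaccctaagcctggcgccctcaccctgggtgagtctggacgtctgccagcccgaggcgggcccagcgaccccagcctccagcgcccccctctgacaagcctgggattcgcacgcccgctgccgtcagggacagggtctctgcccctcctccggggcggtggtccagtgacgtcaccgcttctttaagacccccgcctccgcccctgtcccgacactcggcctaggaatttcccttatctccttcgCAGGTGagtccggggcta
CLDN7, chr17:7262429-7262728, minus strand, the second of 2 listed: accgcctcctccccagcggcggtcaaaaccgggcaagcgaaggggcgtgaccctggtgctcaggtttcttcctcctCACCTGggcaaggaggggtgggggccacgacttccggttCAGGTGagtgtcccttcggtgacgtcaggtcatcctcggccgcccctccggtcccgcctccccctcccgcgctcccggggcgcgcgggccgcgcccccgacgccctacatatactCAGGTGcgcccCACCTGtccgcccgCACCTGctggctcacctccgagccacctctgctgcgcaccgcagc

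The second CLDN7 window held 5 of these E-boxes, at 174, 135, 20 and 9 bases before the start and at base 6 after it. CLDN3 held 1 at base 37 and CLDN6 held 1 at base 33, while the CLDN4 window and the first CLDN7 window held 0. The windows of CDH2, CLDN10 (2 each) and VIM also held 0, and the table had no window for CDH1, CDH3 and EPCAM. Of 35116 RefSeq promoter windows of this length, 20.6% held at least 1 and 0.094% held at least 5. CLDN3, which was lower in ffEPSCs, and CLDN6, which was not, thus each held 1, and a part of these letters in the levels was not tested. A match is a description of the letters, not of binding.

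CLDN6 encodes a claudin of embryonic epithelia and of undifferentiated pluripotent cells, and lies on chromosome 16 (3014712 to 3020071). It was the most abundant claudin gene per kilobase in both libraries, at 235 CPM per kb in ffEPSCs and 255 in ESCs. Its level was 409 CPM in ffEPSCs (407 to 411) and 444 CPM in ESCs (441 to 446), a log2 ratio of -0.12. Cells ran from 221 over a median of 385 to 580 CPM in ffEPSCs and from 97.0 over 470 to 674 CPM in ESCs. The log2 ratio was 0.09 within set 1 and -0.27 within set 3, and -0.32 once the POU5F1-low cells were left out. Its exons share 40 bases with TNFRSF12A on the other strand (82.3 and 78.4 CPM).

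CLDN7, a claudin found along the lateral membrane of many epithelia and a partner of EPCAM, lies on chromosome 17 (7259903 to 7263983) and was somewhat higher in ffEPSCs. It was at 121 CPM in ffEPSCs (120 to 122) and 86.9 CPM in ESCs (85.8 to 88.0), a log2 ratio of 0.47 and an unadjusted fold of 1.39 (1.37 to 1.41). Cells ran from 26.3 over a median of 126 to 209 CPM in ffEPSCs and from 0.740 over 84.2 to 153 CPM in ESCs. The ffEPSC sets 1 to 4 had 164, 108, 119 and 120 CPM, and the ESC sets 1 and 3 had 96.0 and 79.9 CPM. Leaving out the POU5F1-low ESC cells gave a log2 ratio of 0.28, and the low-shift ffEPSC cells alone gave 0.16.

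CLDN10, a claudin that forms ion-selective channels in kidney and secretory epithelia, lies on chromosome 13 (95433604 to 95579759). It was at 34.2 CPM in ffEPSCs (33.6 to 34.8) and 78.0 CPM in ESCs (77.0 to 79.1), a log2 ratio of -1.17. Cells ran from 0 over a median of 32.7 to 78.9 CPM in ffEPSCs and from 22.6 over 87.2 to 135 CPM in ESCs. The ffEPSC cell was the higher one in 13.5% of pairs of cells, the lowest value of the 10 genes. Within sets 1 and 3 the log2 ratio was -2.01 and -1.56, and leaving out the POU5F1-low ESC cells gave -0.97. RefSeq lists 2 CLDN10 starts 119 kb apart, which counts per gene merge, and the exons share 1558 bases with DZIP1 on the other strand (11.5 and 16.7 CPM). The sources used here do not say whether counting used strand, so some CLDN10 counts may belong to DZIP1.

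CLDN4 encodes a claudin of tight epithelia that also serves as a receptor for a bacterial enterotoxin, and lies on chromosome 7 (73799542 to 73832693). It was nearly absent from ffEPSCs, at 0.551 CPM (0.478 to 0.631), and at 16.3 CPM in ESCs (15.8 to 16.8), a log2 ratio of -3.48. The unadjusted fold was 0.0338 (0.0292 to 0.0388). In ffEPSCs 23 cells had 0 reads, another had 0.134 CPM, and a single cell of set 4 with 13.7 CPM held 99.0% of the counts. ESC cells ran from 0 over a median of 7.42 to 63.4 CPM, with 11 of 16 read and 62.7% of the counts in the top 3 cells. Without that single ffEPSC cell the log2 ratio was -4.11. In sets 1 and 3 the ffEPSC cells had 0 reads, against 17.6 and 15.3 CPM in the ESC cells of these sets.

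CLDN3, the neighbour of CLDN4 and also an enterotoxin receptor gene, lies on the minus strand (73768997 to 73770270). It was at 1.89 CPM in ffEPSCs (1.76 to 2.04) and 7.68 CPM in ESCs (7.35 to 8.02), a log2 ratio of -1.59. Cells ran from 0 over a median of 0 to 11.98 CPM in ffEPSCs and from 0 over 5.94 to 18.9 CPM in ESCs. After thinning each cell to 11000000 counts, 9 of 25 ffEPSC cells and 13 of 16 ESC cells had a read (10 and 13 unthinned). The log2 ratio was -1.34 within set 1 and -1.35 within set 3. It was -0.70 in the low-shift ffEPSC cells and -0.88 with a pseudocount of 5 CPM, both short of 2-fold. The single ffEPSC cell with 13.7 CPM of CLDN4 had 4.84 CPM of CLDN3. Of the 16 ESC cells, 5 had 5 CPM of both genes, 3 of CLDN3 alone and 3 of CLDN4 alone. Across cells their log2 levels correlated at r = 0.26 in ffEPSCs and 0.12 in ESCs.

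The counts of the 5 claudin genes thus had a different makeup in the states. CLDN6 held 72.2% in ffEPSCs and 70.1% in ESCs, CLDN7 held 21.3% and 13.7%, CLDN10 6.05% and 12.3%, CLDN3 0.334% and 1.21%, and CLDN4 0.0973% and 2.58%. CLDN12, a claudin measured beside them, was at 50.8 and 52.2 CPM. Among claudins under 5 CPM, CLDN19 was at 0.192 CPM in ffEPSCs and 4.97 CPM in ESCs, and CLDN9, which lies 206 bases from CLDN6, at 1.395 and 0.0754 CPM.

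VIM lies on chromosome 10 (17228259 to 17237593). It was at 12.2 CPM in ffEPSCs (11.8 to 12.5) and 37.1 CPM in ESCs (36.4 to 37.9), a log2 ratio of -1.53 and an unadjusted fold of 0.328 (0.316 to 0.339). Cells ran from 0 over a median of 11.1 to 44.6 CPM in ffEPSCs and from 4.42 over 37.2 to 73.5 CPM in ESCs. VIM was read in 23 of 25 ffEPSC cells and 16 of 16 ESC cells, and reached 10 CPM in 14 of each. The ffEPSC sets 1 to 4 had 15.6, 8.003, 15.9 and 13.9 CPM, all below the 38.6 and 36.0 CPM of the ESC sets 1 and 3. The log2 ratio was -1.25 within set 1, -1.13 within set 3, and -1.47 both without the POU5F1-low ESC cells and for the low-shift ffEPSC cells alone. VIM exons share 641 bases with VIM-AS1 on the other strand, which was at 0.9997 and 0.716 CPM. Per kilobase VIM stood at 2.36 CPM per kb in ffEPSCs and 7.20 in ESCs, below EPCAM at 338 and 343.

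VIM is abundant in fibroblasts, and markers of fibroblasts or feeder cells were checked beside it. Of 7 markers COL3A1, DCN and LUM were not listed, and PDGFRB had 0 reads in ffEPSCs. The other 3, COL1A1, COL1A2 and PDGFRB, without THY1, which pluripotent cells also express, summed to 0 to 70.1 CPM per ffEPSC cell (median 10.6) and 0 to 97.2 CPM per ESC cell (median 25.9). With THY1 the sum was 32.5 to 406 CPM per ffEPSC cell and 60.4 to 634 CPM per ESC cell. The part of these genes in the VIM difference was not tested. CDH2 and VIM did not vary together in ffEPSCs, where their r across cells was -0.27, and it was 0.33 in ESCs. Of 25 ffEPSC cells, 4 had 10 CPM of both, 4 of CDH2 alone, 10 of VIM alone and 7 of neither. Of 16 ESC cells, the counts were 11, 1, 3 and 1 in the same order, so they follow the levels of each gene.

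**Figure D3:**
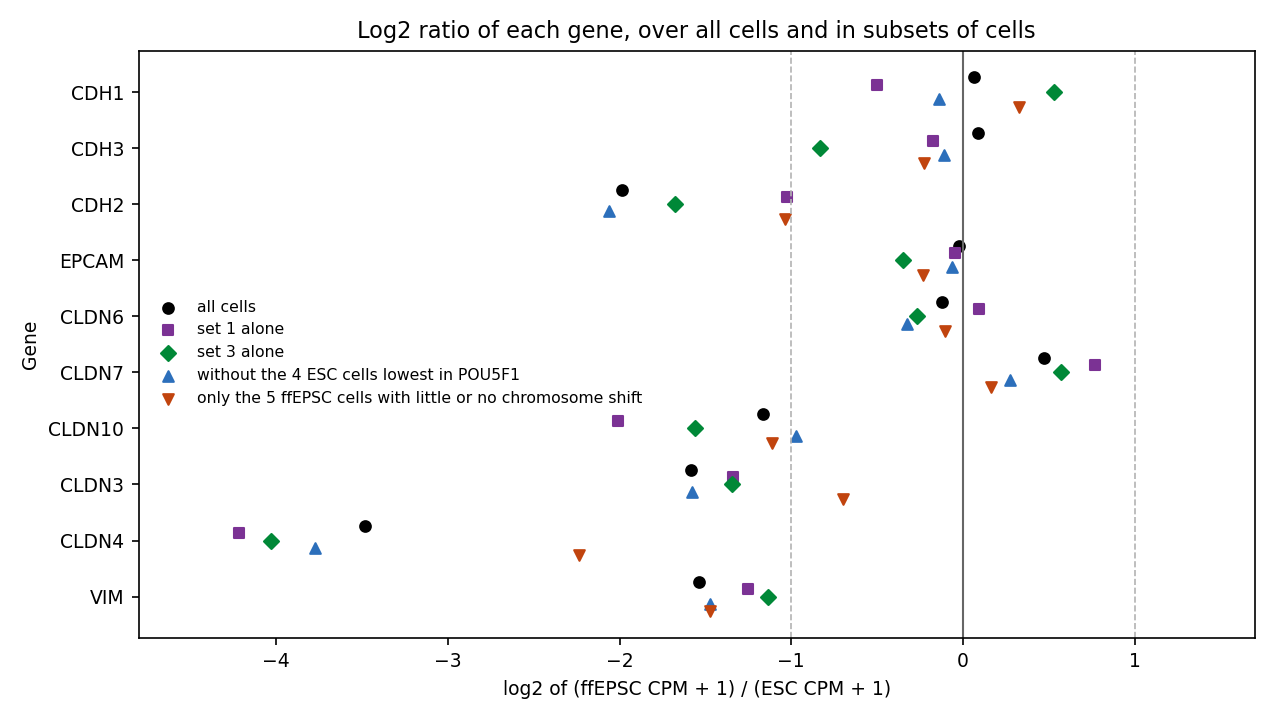
Log2 ratio (ffEPSC over ESC, after adding 1 CPM) of each gene over all cells, within sets 1 and 3, without the 4 POU5F1-low ESC cells, and with the 5 low-shift ffEPSC cells alone; dashed lines mark 2-fold. CDH2, CLDN4 and VIM lay beyond 2-fold in all 5 settings, CLDN10 was at -0.97 without the 4 ESC cells and CLDN3 at -0.70 with the 5 ffEPSC cells.

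The sets, which are parts of the pooled cells and so no independent check, gave the same division of the genes. For CDH2, CLDN3, CLDN4, CLDN10 and VIM each of the 4 ffEPSC sets was below both ESC sets, and for CLDN7 each was above both, while the sets of CDH1, CDH3, EPCAM and CLDN6 overlapped. Over all 10825 genes, 16.1% had every ffEPSC set below both ESC sets and 16.4% every ffEPSC set above, so such an order was common. The 5 lower genes were also lower by 2-fold or more within both set 1 and set 3. This held for 2.89% of the 10825 genes, while 3.48% were higher in this way. Of the 10825 genes, 632 were lower by 2-fold or more over all cells, and 313 of these were so within both sets too. Between sets of 1 state the log2 ratio of set 3 over set 1 in ESCs ran from -0.26 (CLDN7) to 0.23 (CLDN3) over the 10 genes. In ffEPSCs the ratio of set 4 over set 2 ran from -0.16 (CDH1) to 0.72 (VIM), apart from CLDN4 (1.15), which rested on its single cell.

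The 4 POU5F1-low ESC cells had a different pattern of junction genes. These cells had 63.5 to 218 CPM of POU5F1, against 496 to 1310 CPM in the other 12, and were also the shallowest ESC cells (11714517 to 14683949 gene counts). CLDN6 was at 97.0 to 208 CPM in the 4 cells and at 423 to 674 CPM in the other 12, without overlap. CLDN10 went the other way, at 112 to 135 CPM in the 4 cells and 22.6 to 104 CPM in the other 12, again without overlap. Among 10026 genes with 5 CPM in the ESC library, 5.58% had all 4 cells below the other 12 and 3.9% had all 4 above. CLDN7 was at 0.740 to 76.6 CPM in the 4 cells and 61.7 to 153 CPM in the other 12, CDH3 at 6.80 to 96.0 and 72.8 to 291 CPM, and CDH1 at 11.6 to 82.1 and 80.4 to 274 CPM, each with a small overlap. CLDN4 was at most 1.04 CPM in the 4 cells and reached 63.4 CPM in the others. EPCAM stood at 735 to 826 CPM in the 4 cells and 633 to 1118 CPM in the others. CDH2 (0.740 to 71.4 and 0.603 to 120 CPM), CLDN3 (0 to 16.9 and 0 to 18.9 CPM) and VIM (4.42 to 73.5 and 6.97 to 63.5 CPM) overlapped widely. The 4 cells were chosen by POU5F1 after the data were seen, and whether depth or state goes with these differences cannot be told apart.

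Several junction genes varied together over the ESC cells, and once these 4 were left out some pairs did so less and others more. Over the 16 ESC cells the r of log2 levels was 0.91 for CDH3 with CLDN7, 0.84 for CDH3 with CLDN6, 0.84 for CLDN6 with CLDN7 and 0.70 for CDH1 with CLDN6. Without the 4 cells these were 0.34, 0.46, 0.44 and 0.43. In the 25 ffEPSC cells they were 0.07, 0.18, 0.21 and -0.15. All cells of a state share a library and these correlations are descriptions only. For CLDN6 with POU5F1 the r was -0.01 over the ffEPSC cells, 0.96 over the ESC cells and 0.32 over the 12 ESC cells without the POU5F1-low ones. For CLDN6 with total gene counts it was 0.07, 0.79 and -0.35.

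**Figure D4:**
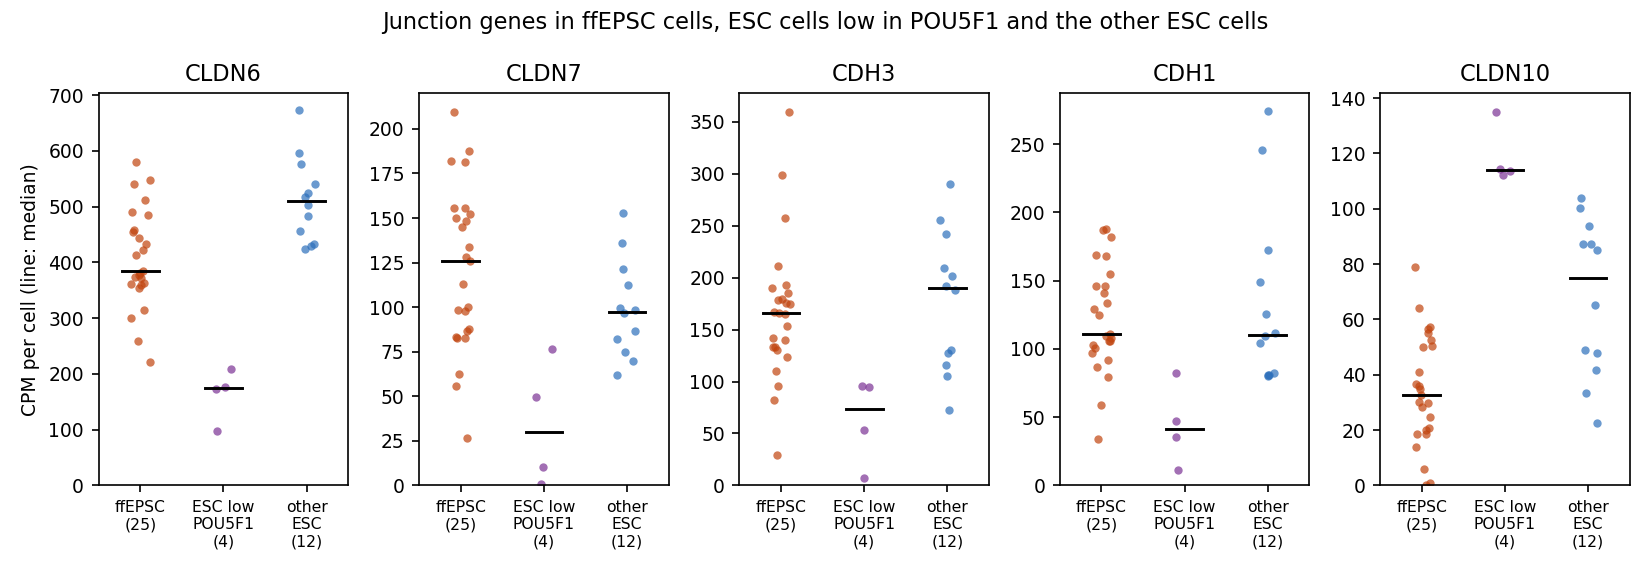
CPM per cell of CLDN6, CLDN7, CDH3, CDH1 and CLDN10 in the 25 ffEPSC cells, the 4 POU5F1-low ESC cells and the other 12 ESC cells, each panel with its own linear axis from 0; lines are medians. CLDN6 lay at 97.0 to 208 CPM in the 4 ESC cells and 423 to 674 CPM in the other 12, and CLDN10 at 112 to 135 and 22.6 to 104 CPM.

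Among ffEPSCs, summed CDH2 counts gave 16.6 CPM in the 5 low-shift cells and 5.93 CPM in the other 20. The cells overlapped, with a lowest, median and highest value of 1.48, 17.5 and 40.5 CPM in the 5 cells and 0, 1.05 and 33.0 CPM in the others. CLDN3 was at 4.34 and 1.26 CPM, and its cells overlapped too, from 0 to 6.54 CPM in the 5 cells and from 0 to 11.98 CPM in the others. EPCAM was at 738 and 881 CPM, CDH1 at 148 and 117 CPM, CLDN6 at 413 and 408 CPM, and VIM at 12.7 and 12.01 CPM. None of the 10 genes lies on the chromosomes used for the shift. The 5 low-shift cells were also low in the summed naive or extended markers, at 41.3 to 184 CPM. Among the other 20 cells the lowest sum was 178 CPM and the next lowest 235 CPM. The part of shift or of marker level in these differences was not tested. The ffEPSC cell with 13.7 CPM of CLDN4 was one of the 5. It also had the lowest POU5F1 of the ffEPSC cells (518 CPM), the lowest sum of naive or extended markers (41.3 CPM), the lowest CLDN7 (26.3 CPM), the highest CLDN10 (78.9 CPM) and 0 reads of VIM.

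Around the 10 genes, desmoplakin and TJP3 were higher in ffEPSCs and plakophilin 3 was lower, while most other junction genes stayed within 2-fold. Over the 10 companion lists, leaving out the 10 genes, 71 of 107 listed genes had 5 CPM in at least 1 library, of which 12 were higher and 8 lower by 2-fold or more, against 14.1% of all genes past 2-fold in either direction. Of 9 measured catenins and adherens junction partners, 1 was higher by 2-fold or more and 0 were lower, with a median log2 ratio of -0.04. This was NECTIN2, a nectin of adherens junctions (31.0 and 14.8 CPM, 1.02), which was at -0.39 within set 3. CTNNB1, which encodes beta-catenin, was at 344 and 503 CPM (-0.55), and CTNNA1, which encodes alpha-catenin, at 315 and 260 CPM (0.28).

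Of 18 measured tight junction scaffolds and other membrane proteins, 1 was higher by this much and 0 were lower, and the median was 0.07. It was TJP3, which encodes the scaffold ZO-3 (11.1 and 2.14 CPM, 1.94), with 1 CPM in 22 of 25 ffEPSC cells and 7 of 16 ESC cells. TJP1, which encodes ZO-1, was at 104 and 85.0 CPM (0.29) and OCLN, which encodes occludin, at 74.7 and 39.1 CPM (0.92, but -0.66 within set 3). Of 6 desmosome genes 1 was higher and 1 lower, with a median of 0.05. DSP, which encodes desmoplakin, the protein that ties desmosomes to intermediate filaments, was at 174 CPM in ffEPSCs and 44.3 CPM in ESCs (1.95, 2.11 within set 1 and 1.32 within set 3). The ffEPSC cell was the higher one in 94.0% of pairs of cells for DSP. PKP3, which encodes the desmosomal plaque protein plakophilin 3, was at 0.519 and 10.5 CPM (-2.92), with 1 CPM in 2 of 25 ffEPSC cells and 10 of 16 ESC cells.

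**Figure D5:**
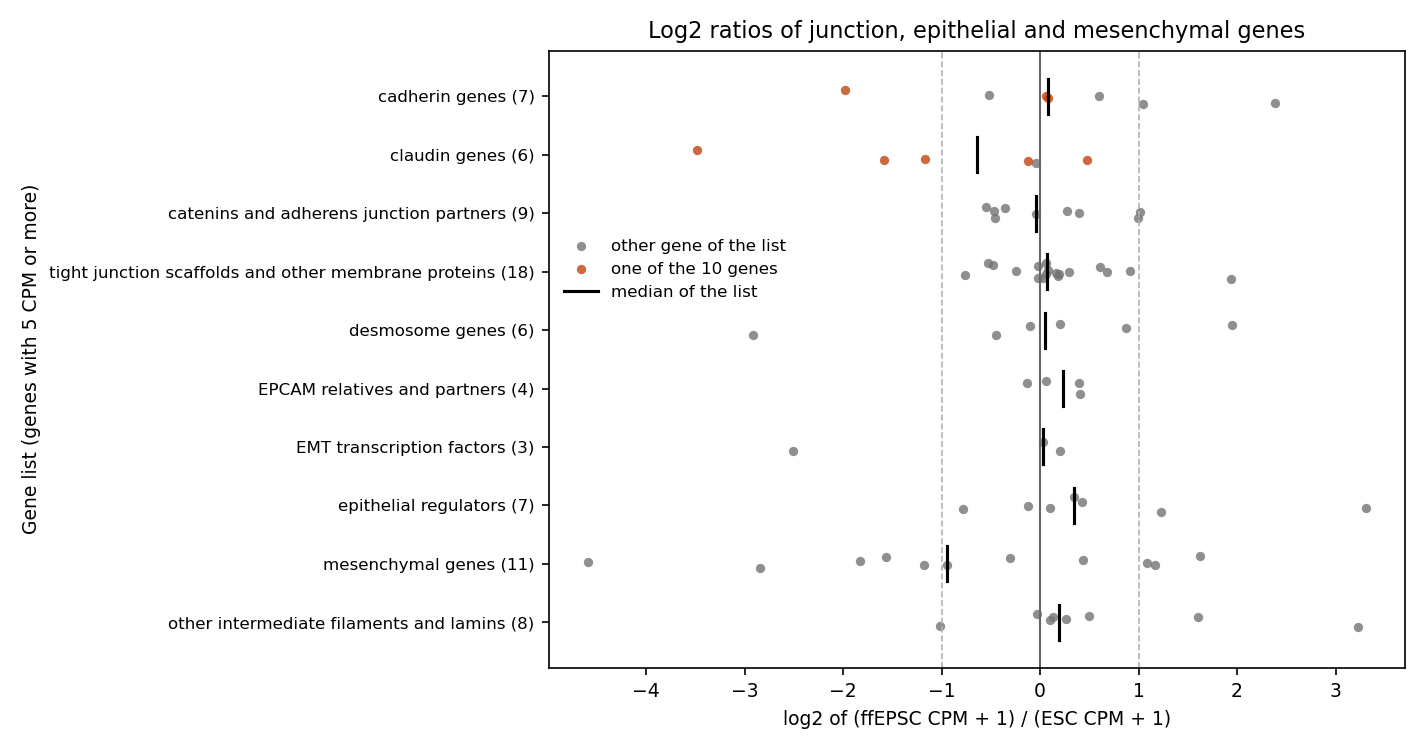
Log2 ratio (ffEPSC over ESC, after adding 1 CPM) of each gene with 5 CPM in at least 1 library, by companion list, with the 10 genes in orange, other genes in grey and the list's median as a black line; dashed lines mark 2-fold. The medians ran from -0.94 for mesenchymal genes to 0.35 for epithelial regulators.

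Transcription factors of the epithelial to mesenchymal transition, apart from TCF3, were at 6.15 CPM or less in both libraries. Of 11, 9 were listed and 3 had 5 CPM in at least 1 library, of which 1, SNAI2, was lower by 2-fold or more and 0 were higher. The median log2 ratio of the 3 was 0.03. SNAI1, a repressor of CDH1, was at 6.15 CPM in ffEPSCs and 5.99 CPM in ESCs. TCF3, an E-box factor, was at 34.1 and 29.5 CPM. SNAI2 was at 0.144 and 5.52 CPM (-2.51), but 66.7% of its ESC counts came from 1 cell. ZEB1 was at 0.390 and 0.384 CPM, ZEB2 at 0.674 and 1.07 CPM, SNAI3 at 3.83 and 2.89 CPM, TWIST2 at 3.45 and 3.10 CPM and PRRX1 at 0.845 and 1.19 CPM. TWIST1 was at 0.658 CPM in ffEPSCs and had 0 reads in ESCs, which allows up to 0.0113 CPM.

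Of 7 measured epithelial regulators 2 were higher by 2-fold or more and 0 were lower. The median was 0.35, against 0.18 within set 1 and -0.37 within set 3. TFAP2C, a transcription factor of trophoblast and naive cells that also marks the extended state here, was at 85.7 and 7.75 CPM (3.31, and 2.61 in the low-shift cells; it lies on chromosome 20), and ELF3, an epithelial ETS factor, at 8.84 and 3.20 CPM (1.23). ELF3 was short of 2-fold without the POU5F1-low ESC cells (0.99), with a pseudocount of 5 CPM (0.76) and against ESC set 3 (0.73). ESRP1, which controls epithelial splicing, was at 182 and 143 CPM (0.35). Of 11 mesenchymal genes 5 were lower and 3 higher by 2-fold or more. Their median was -0.94, and it was -2.14 in set 1 and -1.29 in set 3. The higher ones were FN1 (58.5 and 27.1 CPM, 1.08), SPARC (507 and 225 CPM, 1.17) and LGALS1. Within set 3 the log2 ratio was 0.004 for FN1 and -0.54 for SPARC. The lower ones were COL1A1 (-1.56), THY1 (-1.18), S100A4, TAGLN and TNC, of which THY1 is also expressed by pluripotent cells. S100A4, a calcium-binding protein of motile cells, was at 0.460 and 34.2 CPM (-4.59), and the ESC cell was the higher one in every pair of cells. TAGLN, the actin-binding protein transgelin, was at 12.5 and 47.1 CPM (-1.83). TNC, which encodes the matrix protein tenascin C, had 0 reads in ffEPSCs (a limit of 0.00802 CPM) and 6.19 CPM in ESCs, from 7 of 16 cells. LGALS1, which encodes galectin 1, was higher (32.2 and 9.79 CPM, 1.62), but its log2 ratio was 0.17 within set 1 and 0.30 in the low-shift cells, and it lies on chromosome 22.

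Other intermediate filament genes did not follow VIM. Of 8 measured, 2 were higher and 1 lower by 2-fold or more, and the median was 0.20. The neurofilament genes NEFH (50.2 and 4.48 CPM, 3.22, and 3.60 in the low-shift cells) and NEFL (47.0 and 14.8 CPM, 1.5999) were higher, and NEFM (7.90 and 17.0 CPM, -1.02) was lower, though within 2-fold in sets 1 (-0.52) and 3 (-0.30). NES, which encodes nestin, was at 24.2 and 22.5 CPM, and LMNA, which encodes lamin A and C, at 63.5 and 57.9 CPM.

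For each of the 10 genes the pattern over the 41 cells, after subtracting each state's mean, was set against other genes with 20 CPM. These numbered 6511 or 6512 per gene. The nearest gene is the highest of so many r, and how high an r arises by chance was not tested. The nearest gene was GAK for CDH1 (r = 0.78), ISYNA1 for CDH3 (0.85), CREB1 for CDH2 (0.59), HK1 for EPCAM (0.59), MAEA for CLDN6 (0.85), SSBP3 for CLDN7 (0.81), NMU for CLDN10 (0.64), KCMF1 for CLDN3 (0.58), MON1B for CLDN4 (0.66) and TOE1 for VIM (0.72). The desmosome gene DSP was second for CLDN7 (0.81). Several of these r differed between the states, though the r within a state come from the same cells that picked the genes. MAEA followed CLDN6 at 0.19 over ffEPSC cells and 0.97 over ESC cells, and at 0.44 over ESC cells without the POU5F1-low ones. DSP followed CLDN7 at 0.47 over ffEPSC cells and 0.96 over ESC cells, and at 0.24 without the 4 cells. DBN1, which encodes the actin-binding protein drebrin and was second for CDH3, kept its likeness, at 0.75 over ffEPSC cells, 0.83 over ESC cells and 0.83 without the 4 cells. CLDN3 and CLDN4 were at 0 in most ffEPSC cells, so their values rest on few cells.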

How the data were processed

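Smart-seq2 was the library method, per the labels' protocols. For both samples the authors deposited raw whole-number counts per gene, 1 column per cell. The submitters' processing notes list HISAT2 2.2.1, Subread 2.0.6 with featureCounts, SAMtools 1.6 and bcl2fastq, next to the builds T2T-CHM13 and GRCh38. Annotation, strand and shared reads are not stated there. Repeat tables are not used here.

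Every cell had at least 100000 gene counts and 2000 genes, and 0 were removed. For each state the cells' counts were added up and scaled to CPM, and log2 ratios were taken for all genes with a pseudocount of 1 CPM. Calls needed 2-fold and 5 CPM in at least 1 library. A gene could thus be admitted by the library where it was higher. Genes such as CLDN3, CLDN4, PKP3, SNAI2 and TNC reached 5 CPM in ESCs alone, and CDH26, CDH11, TJP3 and ELF3 in ffEPSCs alone. Cells are not replicates, and each state is 1 sample, so no test was run. The 95% intervals (Poisson for levels, conditional binomial for folds, Clopper-Pearson for shares, all exact) hold counting error alone, because amplified reads are not independent molecules. A median of 98.4% of non-zero counts per ffEPSC cell and 98.5% per ESC cell were even, so a fragment may count as 2 and the intervals may be too narrow. A count of 0 allows 3 counts, or 0.00802 CPM in the ffEPSC library and 0.0113 CPM in the ESC library. Each table lists genes with a read in at least 3 of the 41 cells.

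The 10 genes and the companion and marker lists were chosen with earlier results of these data known. The text names the 10 genes, per companion list up to 4 genes with the largest ratios past 2-fold, all listed EMT transcription factors, and the genes most like each of the 10 (Pearson r of log2 levels over 41 cells after each state's mean was subtracted). SPINT2, CLDN9, CLDN12, CLDN19, CTNNB1, CTNNA1, TJP1, OCLN, ESRP1, NES, LMNA, FN1 and SPARC were named after their values were seen. So were COL1A1 and THY1 as mesenchymal genes. Positions and exon lengths come from GENCODE 29 on GRCh38, which placed 21290 of 22474 genes, and promoters from RefSeq on GRCh38.p14. The low-shift cells lay below 0.3 in their mean log2 shift and on chromosome 5. Alternatives were other pseudocounts, floors and scalings, single sets, and cells left out. Of the steps, only the pooled log2 ratios were tested on simulated data. The software was Python 3.11.15 (numpy 2.4.6, pandas 2.3.3, scipy 1.17.1, matplotlib 3.10.9) and R 4.3.3 (edgeR 4.0.16, for TMM factors of the counts only).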

Additional observations from a re-analysis of the deposited data

How the results depend on the processing

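The count of genes at least 2-fold lower in ffEPSCs was 5, and it was 4 or 5 under every alternative tried except a floor of 20 CPM, which left 8 genes and a count of 3 (CDH2, CLDN10 and VIM) because CLDN3 and CLDN4 reach it in neither library. The count was 4 with a pseudocount of 5 CPM and with only the 5 ffEPSC cells with little or no chromosome shift (CLDN3 short of 2-fold), and without the 4 ESC cells lowest in POU5F1 (CLDN10 short). The count at least 2-fold higher stayed 0. The 5 lower genes kept their direction in all 16 settings per gene. Companion genes past 2-fold numbered 20 of 71 measured, but 11 of 44 at a floor of 20 CPM and 31 of 76 in set 1 alone. More genes passed 2-fold in set 1 in general: of all 10825 genes, 85.9% lay within 2-fold over all cells and 74.0% within set 1. NECTIN2 turned to -0.39 in set 3 alone. The causes were not tested, apart from the fewer genes that a higher floor leaves. Leaving out each cell in turn gave 5 to 5 lower genes, 0 to 0 higher genes and 17 to 22 companion genes. CDH1, CDH3, EPCAM and CLDN6 had no stable direction, with ranges of -0.50 to 0.53, -0.83 to 0.19, -0.35 to 0.06 and -0.32 to 0.09. Totals without chromosomes 5, 11, 14, 20 and 22 moved the median log2 ratio of all genes to 0.13. Comparisons of ffEPSC sets 2 and 4, and of either ESC set alone, with the other state were added after the data were seen, and each gave 5 lower genes. No paired analysis was possible because each state is 1 sample and the labels give no replicate numbers.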
